A study of Drosophila melanogaster with 9 samples.

Results

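Mitochondria keep their own ribosome, which translates the few proteins encoded in mitochondrial DNA, all of them membrane subunits of the respiratory chain and ATP synthase in animals. Its rRNAs come from mitochondrial DNA, but its proteins are encoded in the nucleus, made in the cytoplasm and imported. A large subunit (genes named mRpL) carries the peptidyl transferase centre and a small subunit (mRpS) reads the mRNA, and each joins relatives of bacterial ribosomal proteins to proteins found only in mitochondria. The genes described here are those read by a probe set with a single symbol that starts with mRpL or mRpS. A gene read by more than 1 such probe set was taken from the brightest on average. This gave 69 genes, 44 of the large and 25 of the small subunit, of 11982 genes in all with such a symbol.

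The signals came from 9 Affymetrix Drosophila Genome 2.0 arrays, hybridized with RNA of whole adult Canton-S flies, a wild-type strain. The 3 exposures of 2.5 h were compared, with 3 arrays each, on 25 males and females aged 5 to 6 days. Normoxia (NC) was the control, constant hypoxia (CH) held O2 at 1%, and intermittent hypoxia (IH) alternated 4 min at 1% O2 with 4 min at 21% O2, with ramps between the levels. The comparisons ask which transcripts differ after each pattern of hypoxia and between the patterns. Arrays are named by group and replicate number (NC1 to IH3). The sources do not say whether the 3 replicates of a group were separate exposures, and p-values here therefore reflect just the variation among these 3 samples of a group, which could be technical. Both sexes and all organs were pooled, so fewer cells of a type and less RNA per cell cannot be told apart.

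All 69 genes gave clear signals, from 1637 (mRpL45 on NC3) to 18789 (mRpS5 on NC1) on the linear scale of the deposited values. None had a signal under 100 on any array, while 21.6% to 25.8% of all probe sets did. The median signal of an array over 18769 probe sets ran from 594.1 (IH1) to 822.5 (IH2). Markers of ovary, testis, male accessory gland, muscle, neurons and fat body were measured in every group. Fbp1 of the fat body was dim, from 15.4 (IH2) to 71.3 (IH3), and brp of neurons fell to 73.1 on IH3 and 93.1 on CH1. In the other lists the dimmest signals ran from 314.0 (vas, ovary) to 3436.7 (up, muscle). Some listed markers, among them Mhc, Syt1 and nos, matched no probe set with a single symbol and were left out. No array repeated the values of another.

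None of the 69 genes was called different in any comparison. A call needed an adjusted p (Benjamini-Hochberg over the 18769 probe sets, from limma) below 0.05. It also needed a fold beyond 1.5 or 0.67, and 3 arrays that all fell to the same side of the mean they were compared with. Over all probe sets the calls amounted to 0.0213% for CH and 0% for IH against NC, and to 0.0373% between CH and IH. At an unadjusted p under 0.05, again 0 of the 69 genes passed in each comparison. The background at that level was 2.98% higher and 1.7% lower for CH against NC. For IH it was 1.36% higher and 2.23% lower, and for CH against IH 3.55% and 1.22%. The smallest unadjusted p among the 69 was 0.141 in CH against NC (mRpL39), 0.219 in IH against NC (mRpL1) and 0.0729 in CH against IH (mRpL42), and their adjusted p in limma lay at 0.999 or above.

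The differences were small. They are given as log2 fold changes of signal + 16. In CH against NC they ran from -0.27 (mRpS35, 0.831-fold) to 0.24 (mRpS17, 1.18-fold). IH against NC gave -0.24 (mRpL1, 0.846-fold) to 0.29 (mRpL54, 1.22-fold), and CH against IH -0.36 (mRpL48, 0.781-fold) to 0.19 (mRpS17, 1.14-fold). Every 95% interval included 0, with a median half-width of 0.41 and a median SE of 0.18. The intervals of all 69 genes stayed within 1 log2 unit of 0 in both CH comparisons, as did those of 68 in IH against NC. For a typical gene of this group, an estimate thus had to pass about 0.41 on the log2 scale to reach an unadjusted p under 0.05 in limma. A call asked for more, so true changes larger than 0.41 could also be missed with 3 arrays.

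**Figure D1:**
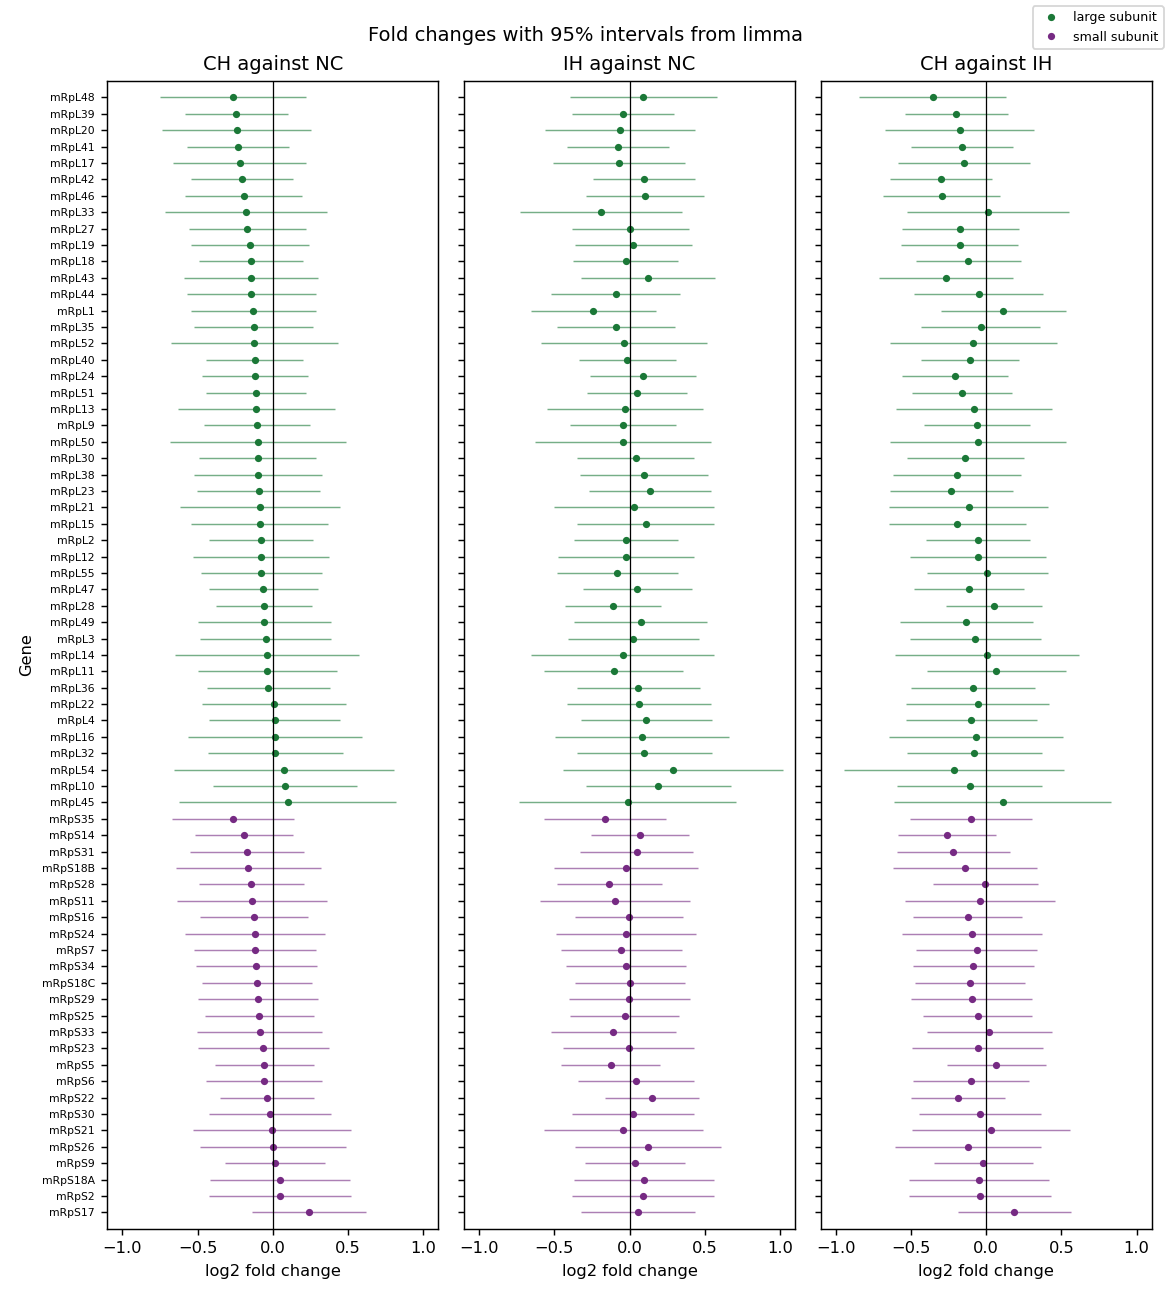
Log2 fold change (x axis) of each of the 69 genes (y axis) in the 3 comparisons, one panel each, with 95% intervals from limma as lines, large subunit in green and small subunit in purple. Every interval crosses 0, and 57 points in the first panel and 58 in the third lie to the left of 0.

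The signs were uneven in CH. In CH against NC, 57 of 69 genes lay below 0 (82.6%), with a median of -0.10 (0.934-fold), against 48.3% of all probe sets and a median of 0.01. In IH against NC the genes were split, 35 below and 34 above 0, with a median of -0.0017 (0.08 with each array centred on its median), where all probe sets had 54.7% below 0 and a median of -0.02. In CH against IH, 58 of 69 lay below 0 (84.1%), with a median of -0.09, against 43.0% and 0.05 over all probe sets. CH had the lowest of the 3 mean linear signals for 51 genes, NC for 11 and IH for 7. Over all probe sets the count was made on mean log2 signals, an unlike measure, and CH was lowest for 31.2%. The count in CH against IH rested on 1 array: without IH1, 34 of 69 genes lay below 0 and the median was 0.0013. The count in CH against NC stayed between 52 and 67 over the settings tried.

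These 69 signs are not 69 separate observations, because the genes moved together from array to array, also within a group. On IH1, 46 of the 69 genes had their highest signal of the 9 arrays (66.7%, against 15.7% of all probe sets), and on IH2, 28 had their lowest (40.6%, against 19.5%). IH1 exceeded IH2 for 65 of 69 genes, with a median difference of 0.44 on the log2 scale, more than any group difference among them. Among the CH arrays, CH1 exceeded CH2 for 62 genes and CH3 for 62. Among the NC arrays, NC1 exceeded NC2 for 55 and NC3 for 54. The mean of the 69 genes, each set to 0 at its NC mean, was 0.09, -0.06 and -0.03 on NC1 to NC3, 0.06, -0.14 and -0.18 on CH1 to CH3, and 0.20, -0.20 and 0.02 on IH1 to IH3. CH2 and CH3 lay below every NC array and CH1 lay among them, while IH arrays held both the highest and the lowest mean of all 9. The SD over the 3 arrays came to 0.08 for NC, 0.13 for CH and 0.20 for IH, against a CH mean of -0.09.

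**Figure D2:**
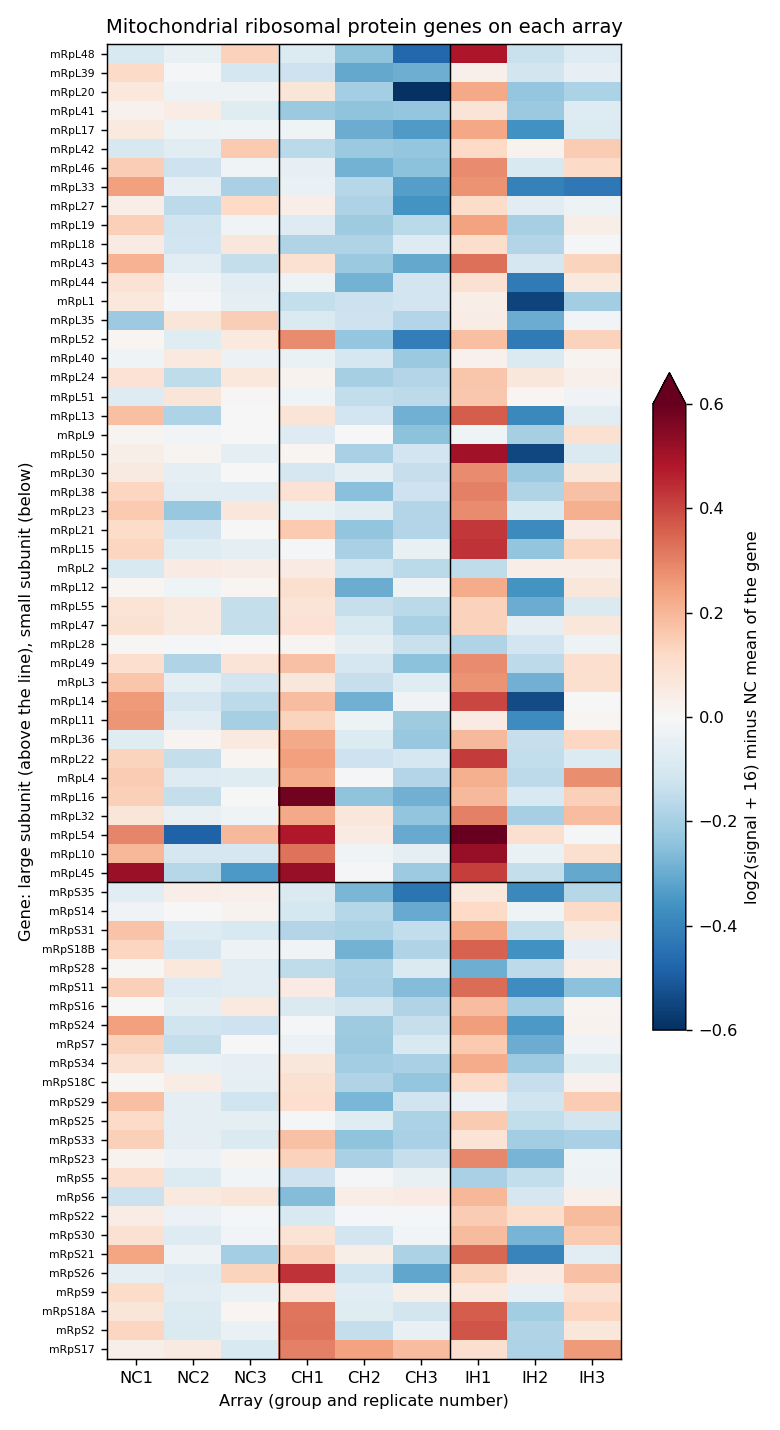
Colour gives log2(signal + 16) of each gene (rows, large subunit above the line and small subunit below) on each array (columns) minus its NC mean. The columns IH1 (mostly red) and IH2 (mostly blue) differ more than the groups do, and CH2 and CH3 are mostly blue; the colour scale ends at 0.6, and mRpL54 on IH1 lies above it.

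In CH against NC, 11 genes had every CH array below every NC array (15.9%; background 5.39%) and 1 gene had every CH array above (1.45%; background 7.13%). The lower genes were mRpL1, mRpL30, mRpL39, mRpL40, mRpL41 and mRpL42 of the large subunit and mRpS14, mRpS16, mRpS28, mRpS31 and mRpS35 of the small one, and the higher gene was mRpS17. None of these differences passed the test. Among the 11982 genes, each by its brightest probe set, 804 had every CH array below every NC array and 840 had every CH array above.

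Of the large subunit, mRpL39 had the smallest p. It is a mitochondria-specific protein that in mammals shares a domain with threonyl-tRNA synthetase. Its signals in replicate order were 3674, 3383 and 3151 in NC, 3117, 2738 and 2769 in CH and 3464, 3145 and 3285 in IH. Every CH array lay below every NC and IH array, but the highest CH array (3117) was close to the lowest NC array (3151). The fold change in CH against NC was -0.24 (95% interval -0.58 to 0.10, adjusted p = 1.00 in limma). mRpL41, also mitochondria-specific, gave 4459, 4514 and 4156 in NC, 3740.1, 3698 and 3720.3 in CH and 4619, 3740.7 and 4147 in IH. The CH arrays were close together and below the NC arrays by a clear step, yet IH2 was within 1 unit of CH1. Its fold change was -0.23 in CH (interval -0.57 to 0.11, adjusted p = 1.00 in limma).

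mRpL42, another mitochondria-specific protein, gave 3685, 3781 and 4406 in NC, 3529, 3384 and 3352 in CH and 4286, 4008 and 4379.7 in IH. The CH signals were the 3 lowest, and the IH signals lay within the NC range. The fold change in CH was -0.20 (interval -0.54 to 0.13) and in IH 0.10 (interval -0.24 to 0.43). Without NC3 the CH value was -0.13. mRpL48, of the same class, gave 2587, 2671 and 3039.6 in NC, 2606, 2333 and 1984 in CH and 3866, 2515 and 2615 in IH. Here CH1 lay inside the NC range, and IH1 stood far above the other 8 arrays. Its fold change was -0.26 in CH (adjusted p = 1.00 in limma), and -0.16 without CH3.

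In the small subunit, mRpS35, mitochondria-specific, had the lowest value in CH, with 5261, 5661 and 5631 in NC, 5185, 4558 and 4066 in CH and 5755, 4214 and 4903 in IH. Every CH array lay under the NC range, though CH1 (5185) came near NC1 (5261), and 2 of the IH arrays were below it too. The fold change in CH was -0.27 (interval -0.67 to 0.14, adjusted p = 1.00 in limma). mRpS17 is the relative of bacterial S17, which binds the small-subunit rRNA early in assembly, and it had the opposite sign. It gave 4713, 4776 and 4309.9 in NC, 5673, 5428 and 5227 in CH and 4905, 4043 and 5488 in IH. All CH signals exceeded all NC signals, and the IH signals ran from below the NC range into the CH range. The fold change was 0.24 (interval -0.14 to 0.62, adjusted p = 1.00 in limma), and mRpS17 and mRpL45 were the only members with their highest mean in CH.

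mRpS14, the relative of bacterial S14 in the head of the small subunit, gave 5021, 5095 and 5163 in NC, 4732, 4518 and 4129.9 in CH and 5532, 4995 and 5517 in IH. The NC arrays were almost equal, the CH arrays lay below them and the IH arrays around and above them. Its fold change in CH was -0.19 (interval -0.52 to 0.13). mRpS31, mitochondria-specific, gave 5550.3, 4667 and 4633 in NC, 4362, 4318 and 4456 in CH and 5799.7, 4467 and 5127 in IH. The CH arrays formed a narrow band just below IH2 and the lower NC arrays. Its fold change was -0.17 (interval -0.55 to 0.20), and -0.09 without NC1. With mRpL39, mRpL41 and mRpL42, these 2 made up the 5 genes whose CH arrays all lay below every NC and every IH array (7.25% of the members, 1.09% of all probe sets).

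**Figure D3:**
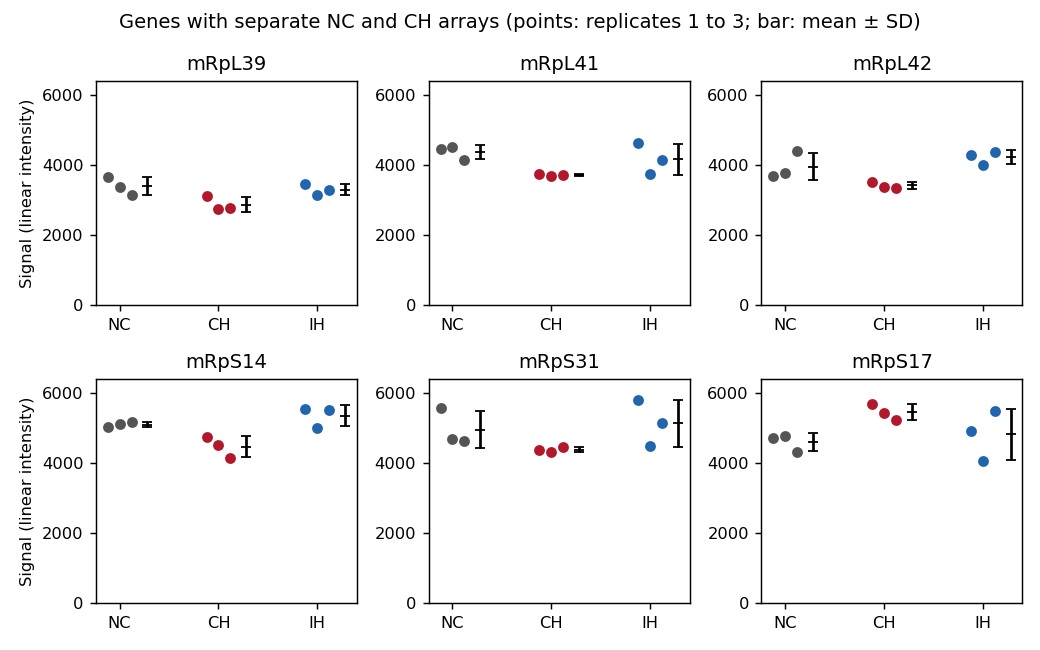
Linear signal (y axis, from 0) of 6 genes on the NC (grey), CH (red) and IH (blue) arrays, one point per array with mean ± SD (n = 3) beside it. For mRpL39, mRpL41, mRpL42, mRpS14 and mRpS31 the CH points lie below all others, and for mRpS17 they lie above the NC points; the gaps are small beside the signals.

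In IH against NC every IH array exceeded every NC array for 1 gene (mRpS22; background 2.63%) and fell short of it for 1 (mRpL28; background 4.03%), so both shares, 1.45% each, were under the background. mRpS22, mitochondria-specific, gave 5223, 4936 and 5029 in NC, 4749, 5034 and 5018 in CH and 5619, 5439 and 5784 in IH. Every IH array was above every NC and CH array, the arrays of each group were close together, and this gene had the smallest spread of the 69 (within-group SD 0.04). The fold change was 0.15 (interval -0.16 to 0.46, adjusted p = 1.00 in limma). mRpL28, the relative of bacterial L28, gave 12567, 12469 and 12506 in NC and 11028, 11573 and 12242 in IH. The IH signals were lower by little, and CH1 (12648) was the highest of all arrays. Its fold change in IH was -0.11 (interval -0.43 to 0.21).

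The gene with the smallest p in IH was mRpL1, whose bacterial relative forms the mobile L1 stalk beside the tRNA exit site. It gave 5435, 5174 and 4994 in NC, 4701, 4759 and 4802 in CH and 5349, 3529 and 4501 in IH. IH1 lay in the NC range and IH2 far below every other array, so that the value of -0.24 (interval -0.66 to 0.18, adjusted p = 1.00 in limma) fell in size to -0.08 without IH2, and was -0.38 without IH1. mRpL33, mRpS28 and mRpS5, all of bacterial type, had values of -0.19, -0.13 and -0.12 in IH. These too depended on single arrays. mRpL33 moved to -0.42 without IH1 and -0.29 without NC3, and to between -0.08 and -0.07 without NC1, IH2 or IH3. mRpS28 gave -0.06 without IH1 and -0.22 without IH3, and mRpS5 -0.07 without NC1. mRpL54, mitochondria-specific, had the highest value, with 3333, 1941 and 3116 in NC, 3806, 2817 and 2204 in CH and 4695, 2913 and 2711 in IH. Its signals scattered in each group (within-group SD 0.41, the widest of the 69), and IH1 alone exceeded all other arrays. The value of 0.29 had an interval of -0.44 to 1.02, and it was 0.05 without IH1 or without NC2 and 0.44 without IH3.

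In CH against IH, 8 genes had CH arrays entirely below the IH arrays (11.6%; background 2.79%) and 0 had them above (background 5.07%). They were mRpL24, mRpL39, mRpL41, mRpL42, mRpL51, mRpS14, mRpS22 and mRpS31. mRpL42 had the smallest p, with a difference of -0.30 (SE 0.15, interval -0.64 to 0.04, adjusted p = 0.999 in limma), followed by mRpS14 with -0.26 (interval -0.59 to 0.07). mRpL46, mitochondria-specific, gave 4391, 3637 and 3906 in NC, 3832, 3259 and 3338 in CH and 4831, 3721 and 4298 in IH. CH2 and CH3 were the lowest arrays, CH1 lay above IH2, and the difference was -0.30 (interval -0.69 to 0.09). mRpL48 and mRpL43, also mitochondria-specific, differed by -0.36 and -0.27, and mRpS22 and mRpS31 by -0.19 and -0.22. Without IH1 the values were -0.16 for mRpL48, -0.16 for mRpL43 and -0.13 for mRpS31. The highest value, 0.19 for mRpS17, was 0.07 without IH2 and 0.29 without IH3. Among the 11982 genes by brightest probe set, 367 had CH arrays entirely below the IH arrays and 491 had them above.

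The medians of the large and small subunits lay close together. The median in CH against NC was -0.10 for the 44 large-subunit genes (37 below 0) and -0.09 for the 25 small-subunit genes (20 below 0). In IH against NC the medians were 0.02 and -0.0024, and in CH against IH -0.11 and -0.06. Large minus small subunit came to -0.01, 0.02 and -0.04. On single arrays the mean of the large subunit minus that of the small one, both relative to NC, was 0.02, -0.02 and -0.07 on CH1 to CH3, 0.07, -0.01 and -0.0039 on IH1 to IH3, and 0.01, -0.02 and 0.01 on NC1 to NC3. CH arrays fell on both sides of the NC arrays, so no offset between the subunits held in a whole group. IH1 was the highest array in both subunits (0.23 and 0.16). The lowest was CH3, followed closely by IH2, in the large subunit (-0.21 and -0.20), and IH2 before CH3 in the small one (-0.19 and -0.13).

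**Figure D4:**
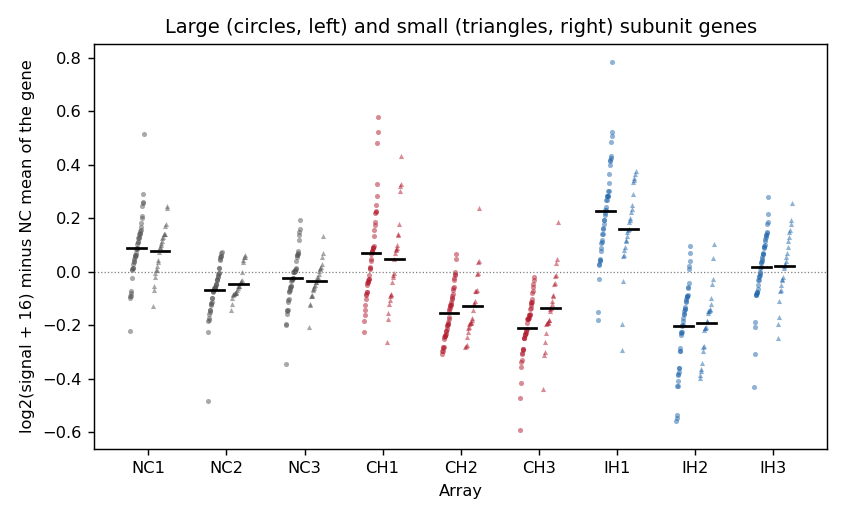
log2(signal + 16) minus the NC mean of each gene (y axis) on the 9 arrays (x axis), large-subunit genes as circles and small-subunit genes as triangles, with bars at the means. The paired bars sit close together on every array and rise and fall together, from 0.23 and 0.16 on IH1 to -0.20 and -0.19 on IH2.

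By descent, 42 genes were listed as relatives of bacterial ribosomal proteins and 27 as mitochondria-specific. Their medians were -0.09 and -0.11 in CH against NC, -0.00094 and -0.0017 in IH against NC, and -0.08 and -0.12 in CH against IH, where 33 of 42 and 25 of 27 lay below 0. mRpL55, which has no bacterial relative, stood in the first list, and mRpS18A and mRpS18B, which descend from bacterial S18, in the second. With these 3 moved, the medians in CH against IH were -0.08 and -0.11, with 35 of 43 and 23 of 26 below 0. Neither difference was tested.

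Genes of the ribosome's working centres gave values from -0.11 to 0.19. mRpL2 and mRpL3, whose bacterial relatives frame the peptidyl transferase centre, had -0.08 and -0.05 in CH and -0.02 and 0.03 in IH. mRpL10, mRpL11 and mRpL12 build the stalk that recruits translation factors, and its base. mRpL10 gave 9050.4, 7354 and 7343 in NC, 9884, 7754 and 7568 in CH and 11325, 7649.5 and 8425 in IH, mRpL11 2989, 2379.9 and 2167 in NC, 2730.2, 2439 and 2142 in CH and 2574, 1914 and 2512 in IH and mRpL12 8818, 8591 and 8820.1 in NC, 9352, 7114 and 8553 in CH and 10189, 6816 and 9151 in IH. CH1 and IH1 were among the 3 brightest arrays for each, IH2 was lowest for mRpL11 and mRpL12, and the groups overlapped. Their values in CH were 0.08, -0.04 and -0.08, and in IH 0.19, -0.11 and -0.02. The IH value of mRpL10 came next to that of mRpL54 among the 69, but it was 0.03 without IH1, 0.31 without IH2 and 0.29 without NC1.

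mRpS29, a small-subunit protein known in mammals as death-associated protein, binds GTP. It had -0.10 in CH and -0.0017 in IH. mRpS18A and mRpS30 carry small-subunit names but sit in the large subunit of animal mitochondria. mRpS18A had 0.05 in CH and 0.10 in IH, and mRpS30 -0.02 and 0.02. Counting both with the large subunit left large minus small at 0.0013 in CH against NC and -0.02 in CH against IH. The sign of the CH or IH value turned under at least 1 of the settings tried for each gene of these 2 paragraphs.

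The genes with the steadiest signals were mRpS22, mRpL28 and mRpL40 (within-group SD 0.04, 0.06 and 0.07), and mRpS9 had the smallest ratio of brightest to dimmest array, 1.13. The widest were mRpL54 and mRpL45 (both 0.41) and mRpL14 (0.33). For mRpL45, the signals were 2989, 1848 and 1637 in NC, 3005, 2068 and 1790.3 in CH and 2785, 1889 and 1679.8 in IH. The first replicate was brightest in each group, the others lay clearly lower, and the groups overlapped. The median within-group SD of the 69 genes was 0.17, under the 0.38 of all probe sets, many of which were dim.

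A second probe set bore on 2 genes. For mRpS11 the other probe set had -0.18 in CH and 0.04 in IH, against -0.14 and -0.09 for the chosen one. For mRpL47 it had -0.13 and 0.0030, against -0.06 and 0.05. Both CH values of each gene were below 0, and the IH values of mRpS11 differed in sign. mRpS10 and mRpL53 were read only by probe sets shared with another gene, CG34316 and CG33155, and did not count among the 69. These had -0.16 and -0.12 in CH and 0.02 and 0.06 in IH, with no call. mRpS18B stood on a probe set of a kind that can pick up transcripts of other genes, so its value of -0.16 in CH is less certain.

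Some mitochondrial ribosomal proteins have other symbols. tko, the fly S12, is the gene of the bang-sensitive mutant technical knockout, and bonsai is the fly S15. tko gave 10193, 8973 and 8397 in NC, 9723, 8326 and 7392 in CH and 11618, 7746 and 9432 in IH. IH1 was again the highest array and CH3 the lowest, and the groups overlapped. Its fold changes were -0.12 in CH and 0.05 in IH, and those of bonsai -0.04 and 0.11, with adjusted p = 1.00 in limma.

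Among genes that act with the ribosome, the 9 mitochondrial translation factors had 7 members below 0 in CH and a median of -0.09, beside the -0.10 of the ribosomal proteins. mEFTu2, an elongation factor that brings aminoacyl-tRNA to the ribosome, was lower on every CH array than on every NC array, with -0.27 (SE 0.16, adjusted p = 1.00 in limma), while mEFTs, which recharges such a factor with GTP, had 0.16. mRRF1, a ribosome recycling factor, had -0.31. The 16 genes for mitochondrial aminoacyl-tRNA synthesis had a median of -0.07 in CH and 0.04 in IH. One of them, AsnRS-m, the asparaginyl-tRNA synthetase, reached an unadjusted p of 0.0302 in IH with 0.45 (SE 0.17, adjusted p = 1.00 in limma), and all its IH arrays exceeded the NC arrays. It was the single gene of these 2 lists past that level in IH, and none passed in CH.

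Genes for mitochondrial DNA maintenance and transcription (11, median -0.05 in CH and -0.0057 in IH) and for protein import (19, -0.04 and -0.0016) had 0 calls and 0 genes at an unadjusted p under 0.05 in either comparison with NC by limma. Of 3 regulators linked to mitochondrial gene expression, ewg, the fly relative of mammalian NRF-1, gave 2345.5, 2011 and 1702 in NC, 1386, 1462 and 1475 in CH and 2081, 1348 and 1599 in IH. All CH signals were below all NC signals, and the IH range overlapped both. The fold change in CH was -0.47 (SE 0.21, adjusted p = 1.00 in limma). Ets97D, the relative of a subunit of mammalian NRF-2, and Dref had -0.03 and -0.0077.

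The nuclear genes listed for oxidative phosphorylation had a median of -0.02 in CH and 0.02 in IH over 78 genes, with 0 calls and 0 at an unadjusted p under 0.05 by limma in both. The list was drawn by symbol and also held Sdh genes, Sdhaf3 and genes with symbols ending in L. The latter had the 3 smallest p in CH (ND-B14.5AL, SdhBL and COX7AL, 0.34 to 0.52). The same held in IH (UQCR-11L, ATPsynepsilonL and ATPsynGL, -0.62 to -0.32). The array order of the 78 genes as listed ran against that of the ribosomal proteins: their mean was -0.23 on IH1 and 0.27 on IH2. No mean was taken without the genes with symbols ending in L. Those just named were all brighter on IH2 than on IH1 (SdhBL, 2423 and 1146). The 41 genes listed for cytoplasmic ribosomal proteins had a median of 0.07 in CH and 0.07 in IH, with 36 and 31 above 0. In both, 0 were called and 0 had an unadjusted p under 0.05 by limma. This list too was drawn by symbol, did not hold every such protein, and held genes with symbols ending in -like. One of these, RpLP0-like, had the smallest p of the list in CH (-0.22). The mean of these 41 genes was -0.12 on IH1 and 0.14 on IH2. They were far brighter than the mitochondrial ribosomal proteins (median signal 79639 against 4556), and the part of brightness in the array order was not tested. The aminoacyl-tRNA genes (0.23 and -0.23) and the translation factors (0.24 and -0.09) followed the order of the mitochondrial ribosomal proteins (0.20 and -0.20).

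**Figure D5:**
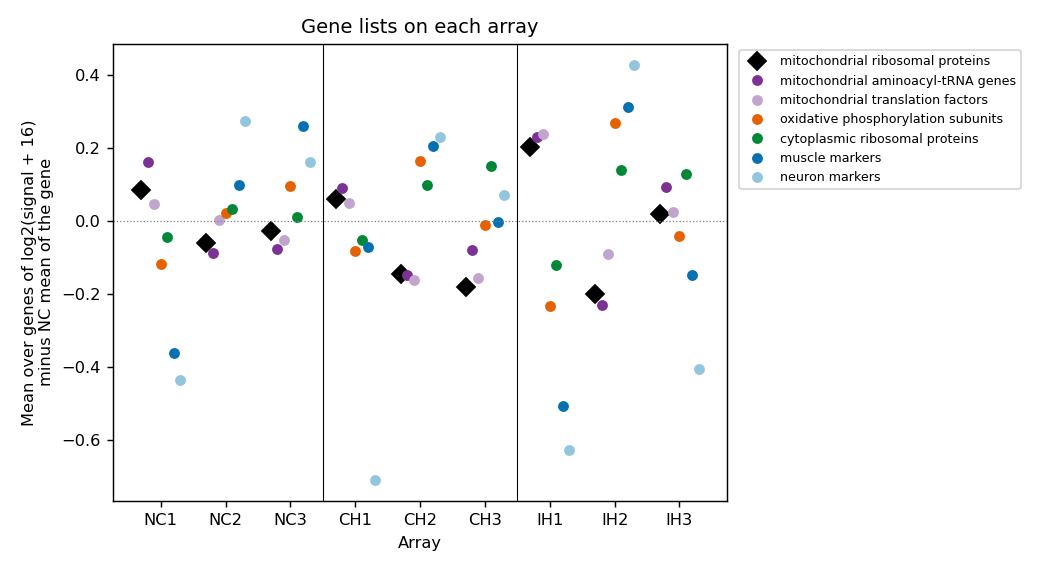
Mean over the genes of 7 lists of log2(signal + 16) minus each gene's NC mean (y axis) on the 9 arrays (x axis), one point per list and array, with the 69 mitochondrial ribosomal proteins as black diamonds. On IH1 and IH2 the diamonds and the purple points (mitochondrial aminoacyl-tRNA genes and translation factors) lie on one side of 0 while oxidative phosphorylation, muscle and neuron points lie on the other.

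Markers of single tissues moved by array too. The mean of 13 muscle markers was -0.51 on IH1 and 0.31 on IH2, and that of 9 neuron markers -0.63 and 0.43, and both were low on NC1 (-0.36 and -0.44), where the mitochondrial ribosomal proteins were high. The summed signal of the muscle list was 212775 to 319981 in NC, 267065 to 309641 in CH and 194193 to 349941 in IH, and that of the neuron list 21470 to 32472, 18975 to 32773 and 17109 to 37858. The groups overlapped in both. The 12 testis markers were all above 0 in CH, with sums of 93984 to 111435 in NC, 119003 to 139974 in CH and 73319 to 148455 in IH, so CH and NC did not overlap. The 11 male accessory gland markers were also all above 0 in CH (210176 to 233623 in NC, 241463 to 293107 in CH, 162478 to 278765 in IH). The ovary list (14 markers) had 9 above 0 in CH, with sums of 558802 to 787260 in NC, 736501 to 903441 in CH and 696200 to 1011050 in IH. The part of these shifts in the values of the mitochondrial ribosomal proteins was not tested.

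The array's controls for 18S rRNA, which report how much rRNA was labelled, also differed. Their mean log2 signal was 6.88, 6.89 and 7.40 on NC1 to NC3, 8.19, 9.68 and 8.85 on CH1 to CH3 and 7.07, 10.54 and 10.22 on IH1 to IH3. IH1, where the mitochondrial ribosomal proteins were highest, had the lowest value of its group and IH2 the highest, and CH1 likewise the lowest of the CH arrays. The other arrays were less regular. IH3 came near IH2, yet the mean of the 69 genes was 0.02 on IH3 and -0.20 on IH2. CH2 exceeded CH3, yet that mean was -0.14 on CH2 and -0.18 on CH3. The difference between CH and NC was 1.85 (two-sided exact permutation test, p = 0.1, the smallest that 3 arrays against 3 can give). Between IH and NC it was larger, 2.22 (exact permutation p = 0.2), with IH1 inside the NC range. CH minus IH was -0.37 (exact permutation p = 0.8). The ratios of 3' to 5' control probe sets, a measure of RNA integrity, differed between CH and NC by -0.09 for actin and 0.01 for GAPDH on the log2 scale (exact permutation p = 0.7 and 0.9). In IH against NC the differences were -0.13 for actin (exact permutation p = 0.6) and 0.16 for GAPDH, whose ratio was higher on every IH array than on every NC array (exact permutation p = 0.1, the smallest possible). Those of eIF-4a were 0.04 in CH and -0.08 in IH (exact permutation p = 0.8 and 0.4). The part of the rRNA signal and of these ratios in the ribosomal protein values was not tested.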

How the data were processed

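Total RNA of whole Canton-S flies was hybridized to 9 arrays, 3 each for NC, CH and IH, and groups and replicate numbers were taken from the sample labels. The authors normalized the raw data with the Bioconductor affy software (options not given in the sources used here) and deposited linear intensities per probe set, 1 column per array. The labels name an RNeasy Micro kit for extraction, while the study's methods name Trizol with an RNeasy clean-up. There is no read depth, and the number of arrays limits the precision.

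After leaving out 183 control probe sets, log2(signal + 16) of 18769 probe sets was fitted with limma 3.58.1 (lmFit and eBayes, prior degrees of freedom 2.19) in R 4.3.3, with all 9 arrays in one fit. All fold changes refer to these sums, so those of dim probe sets come out too small. VAMPIRE, the tool named in the study's methods, was not used. The platform annotation gave 1 symbol for 13647 probe sets, several for 402 and none here for 4720. All 69 genes matched the RefSeq gene table, which lists 73 genes of such names. The other 4 (mRpL34, mRpL37, mRpL53 and mRpS10) were not read by a probe set of their own, and their coordinates were not used. Bacterial-type genes were told from mitochondria-specific ones by the number in their symbol.

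The members, the gene lists and the tests were chosen with earlier results of these data known. Genes named are, in each comparison, the 4 of each subunit with the smallest p, and genes of the peptidyl transferase region, the stalk, mRpS29, mRpS35, mRpS18A, mRpS30, tko, bonsai and up to 3 per list. Others (mRpL28, mRpL45, mRpS9 and members that did not overlap) were chosen after their values were seen. Alternatives were other pseudocounts (1 and 50), quantile normalization, centring on the median, no dim probe sets, array weights, a spread that follows the signal, a fit of 2 groups at a time, a block by replicate number, and leaving out each array. Promoter and protein sequences were not used here.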

Additional observations from a re-analysis of the deposited data

Results flagged for a closer look

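For mRpL42, every CH array lay below the NC mean and every IH array above it, though NC3 (4406) exceeded every IH array. The log2 fold changes were -0.20 in CH and 0.10 in IH (limma, adjusted p = 1.00 for both). The same held for mRpS22, with -0.0372 in CH and 0.15 in IH (limma, adjusted p = 1.00 for both). The difference between CH and IH was tested in limma and came to -0.30 for mRpL42 (adjusted p = 0.999) and to -0.19 for mRpS22 (adjusted p = 0.999). Of the 69 genes, these 2 had this pattern. Its share among all probe sets was not counted, so the pattern cannot be called particular to them.

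The control probe sets for 18S rRNA, which enter no comparison of genes, were brighter on every CH array than on every NC array, by 1.85 in mean log2 signal (exact permutation p = 0.1, the smallest possible here). The mean difference of IH from NC was larger, 2.22 (exact permutation p = 0.2), but IH1 lay inside the NC range. The log2 ratio of 3' to 5' control probe sets for GAPDH was higher on every IH array than on every NC array, by 0.157 (exact permutation p = 0.1).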

How the results depend on the processing

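None of the 69 genes was called under any alternative, and the smallest adjusted p of a member over all alternatives and comparisons was 0.0899 (limma, mRpS14 in CH against IH with array weights; the range for that gene and comparison was 0.0899 to 1.00). The median of the members in CH against NC stayed below 0, from -0.16 to -0.06. In IH against NC it lay between -0.08 and 0.13, and in CH against IH between -0.22 and 0.0013. Centring each array on its median moved the median of all probe sets in CH against IH from 0.05 to -0.08. It shifts every probe set of an array alike, so the members' median relative to all, -0.14, could not change. With quantile normalization, which can change it, that relative median was -0.06 in CH against IH. In CH against NC it went from -0.11 to -0.06 with quantile normalization. Counts of members below 0 in CH against IH ran from 34 (without IH replicate 1) to 65 when one array was left out, and their median from -0.21 to 0.0013. Large minus small subunit in CH against IH ran from -0.0911 (without CH replicate 2) to -0.0154.

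Members lower at an unadjusted p under 0.05 in CH against IH were 0 as reported. Leaving out the dimmest 40% of probe sets gave 1 (mRpL42), beside 153 of the 11261 probe sets kept. Array weights gave 11 of 69, beside 1448 of all 18769. Leaving out one array gave 0 to 1 (mRpL46, without IH replicate 2, beside 294 of all). Array weights also gave 1 lower in CH against NC (mRpS35, beside 739 of all) and 2 higher in IH against NC (mRpL4 and mRpS22, beside 1387). They called 34, 159 and 272 of all probe sets in the 3 comparisons, against 4, 0 and 7. The cause was not tested.

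No source says what arrays of one replicate number share, so the number was not used as a block in the fit reported. Deviations of same-numbered arrays correlated at 0.09 to 0.32, over 0.1 in 7 of 9 pairs and in all 3 pairs of NC and IH, and all 9 arrays correlated best with an array of their own number, a hint from the data and not the design. Within the numbers 1 to 3 the mean of the 69 genes differed by -0.02, -0.09 and -0.15 in CH against NC, each below 0, and by 0.12, -0.14 and 0.05 in IH against NC. With the replicate number as a block, 0 members were called in the 3 comparisons, 1 member (mRpL46) was lower at an unadjusted p under 0.05 in CH against IH, and called probe sets went from 4 to 1 in CH against NC and from 7 to 0 in CH against IH. These fits, chosen after seeing the data, gave 4 members with both the block and a spread tied to the signal (mRpL42, mRpL43, mRpL46 and mRpS14) and 1 with quantile normalization and the block (mRpL46). Of all 18769 probe sets, 387 were lower at that level in CH against IH with the block. The number was 462 with the block and the spread, and 683 with quantile normalization and the block.

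The sign of a value changed for 10 named genes. With array weights they were -0.0162 for mRpS18A in CH against NC, 0.013 for mRpS28, 0.0701 for mRpL11, 0.062 for mRpL12, 0.00436 for mRpL2 and 0.17 for mRpS29 in IH against NC, and -0.00450 for mRpS17 in CH against IH. Centring on the median gave 0.058 for mRpL12, 0.058 for mRpL2 and 0.0801 for mRpS29 in IH. Quantile normalization, with or without the block, gave 0.00565 for mRpS30 in CH and 0.00279 for mRpS29 in IH. Without the 3 arrays of replicate number 1, chosen after seeing the data, mRpS18A had -0.054 and mRpL11 0.0093 in CH, and mRpS18A -0.0032, mRpS30 -0.014, mRpL3 -0.012 and mRpS29 0.10 in IH. Leaving out one array at a time gave, in CH, -0.0401 to 0.18 for mRpL10, -0.14 to 0.094 for mRpL11, -0.16 to 0.033 for mRpL12, -0.10 to 0.037 for mRpL3, -0.0902 to 0.12 for mRpS18A and -0.066 to 0.033 for mRpS30. In IH it gave -0.20 to 0.031 for mRpL11, -0.15 to 0.14 for mRpL12, -0.068 to 0.041 for mRpL2, -0.10 to 0.18 for mRpL3, -0.0399 to 0.25 for mRpS18A, -0.078 to 0.088 for mRpS29 and -0.061 to 0.17 for mRpS30. Descriptions of promoter windows and protein lengths were not run.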
